A study of Mus musculus with 19 samples.

Results

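Contacts that pass over the whole Shh domain were measured, the 2500 of 39340 bin pairs in each map whose ends lie on opposite sides of the domain. Each pair joins a 10 kb bin of the 500 kb below the domain (the lower flank, chr5:28260001-28760000 in the mm9 build) to a 10 kb bin of the 500 kb above it (the upper flank, chr5:29710001-30210000). The pairs were defined by position, with earlier results of these data known, and every one of them was used in all 9 maps. Their ends lie 960 to 1940 kb apart, with the 950 kb domain between them.

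The study used capture Hi-C, in which chromatin ends held close together in fixed nuclei are ligated, 1 genomic region is enriched with probes, and the joined ends are counted as contacts. A topologically associating domain (TAD) is a stretch of chromosome whose parts meet each other more often than they meet the chromatin outside. Many domain borders and loop anchors hold sites for CTCF, a DNA-binding protein that stops the loop-extruding cohesin complex. Shh encodes Sonic hedgehog, a secreted signal that shapes the developing limb, brain and spinal cord. Its limb enhancer, the ZRS, lies at the far end of the same domain inside an intron of Lmbr1. Contacts between the flanks leave both Shh and the ZRS out. In the gene order of a RefSeq table of another build (GRCm38.p6, used for names only), Rbm33, Cnpy1, En2 and Insig1 lie on the lower side of Shh, and Rnf32, Lmbr1, Nom1, Mnx1, Ube3c and Dnajb6 follow on the upper side. En2 and Mnx1 are homeobox transcription factors, En2 of the midbrain and hindbrain and Mnx1 of motor neurons and pancreas. Insig1 is a membrane protein that restrains sterol synthesis, Ube3c is a ubiquitin ligase and Dnajb6 is a chaperone. No gene was placed at a bin, since no annotation of mm9 was used here.

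The 19 samples fall into 9 groups, each deposited as 1 merged map. Limb buds at E10.5 carried a deletion labelled i4i5ZRS, i4i5ZRSreg, i4i5, ZRSreg or Lmbr1 promoter, or were wild type, and midbrain at E10.5 carried i4i5ZRS or was wild type. The ninth group is wild-type embryonic stem (ES) cells. The names i4, i5 and ZRS in the CTCF alleles stand for CTCF sites by their labels, ZRSreg is an element that the labels do not describe further, and the Lmbr1 promoter deletion is labelled as carried on both alleles. The 6 maps with a deletion and the ES cell map come from the G4 strain, and both other wild-type maps from C57BL/6. Strain and genotype therefore cannot be told apart in a comparison of a deletion with wild type, nor strain and cell type in ES cells against limb. Limb wild type has 3 samples, of which 2 share a library number, and each other group has 2. The series' design text calls the replicates biological for wild type and technical for the mutants. As the samples of a group were merged, no spread between replicates and no p-value can be given. Intervals below are 95% counting intervals, and they set the merged maps against each other, not the conditions. They are too narrow as errors, because ligation products counted without molecular identifiers are not independent molecules. The maps come from bulk tissue, in which a contact held by fewer cells and a contact made less often in each cell cannot be told apart. The maps hold no expression values, so tissues were not checked against marker genes, and the deletions were not checked in the maps.

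Recovered contact totals ran from 1177173 in limb i4i5 to 3218492 in ES cells, and 29689 to 62764 of these contacts per map joined the flanks. All values are observed over expected. The expected signal of a pair is the average over every pair of that map with an equal distance between its ends, those with no contact included. A value of 1 is thus the average pair at that distance. The flank-to-flank pairs are themselves 18.7% of the 13365 pairs that set this average, and 50 of the 135 pairs at their median separation of 1450 kb.

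Chromatin on opposite sides of the Shh domain met more often than the average pair at the same distance in all 9 maps. Taken as 1 block, the 2500 pairs stood at 1.34 (1.33 to 1.36) in midbrain i4i5ZRS, against 1.36 (1.35 to 1.37) in midbrain wild type. ES cells had 1.42 (1.41 to 1.44), limb i4i5ZRS 1.33 (1.31 to 1.34), limb i4i5ZRSreg 1.43 (1.42 to 1.44), limb i4i5 1.38 (1.36 to 1.39), limb ZRSreg 1.37 (1.36 to 1.39) and the limb Lmbr1 promoter deletion 1.36 (1.35 to 1.37), against 1.41 (1.40 to 1.43) in limb wild type. The whole range over tissues and alleles was 1.33 to 1.43. Single pairs were spread much more widely, with an SD over the pairs of a map of 0.656 to 0.898, and 59.9% to 66.4% of the pairs stood above 1. The median pair held 9 to 18 contacts, and 3 to 79 of the 2500 pairs held none.

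The excess over the average depended on distance. In ES cells, pairs 960 to 1150 kb apart had 2.16 times the expected signal, pairs at 1160 to 1350 kb 1.81, at 1360 to 1550 kb 1.22, at 1560 to 1750 kb 0.826 and at 1760 to 1940 kb 0.756. Limb wild type ran less steeply over the same bands, at 1.95, 1.81, 1.21, 0.933 and 0.830. In both maps the innermost pairs were above the average of their distance and the outermost below it.

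At equal distance, a pair that skipped the whole domain met more often than a pair with 1 end inside the domain. The comparison was made at 41 separations from 1000 to 1400 kb, where flank-to-flank pairs, pairs of the lower flank with the domain and pairs of the domain with the upper flank all occur. In ES cells the means over these separations were 1.91 for flank to flank, 1.37 for the lower flank with the domain and 0.650 for the domain with the upper flank. This was the widest gap of the 9 maps between contact that skips the domain and contact across its upper border (2.94 times). Midbrain wild type had 1.80, 1.27 and 0.891, and limb wild type had 1.82 ± 0.23, 1.20 ± 0.14 and 0.876 ± 0.104 (SD, n = 41 separations, which are not replicates). In limb wild type, flank-to-flank contact was the higher at all 41 separations in both pairings. In every map flank-to-flank contact was 1.39 to 2.94 times that of each class with 1 end in the domain, and it was the higher at 38 to 41 of the 41 separations.

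The 4 maps that lack i4 and i5 differed from wild type in the classes with 1 end in the domain and much less in the contact that skips it. Limb i4i5 had 1.75 for flank to flank against 1.82 in limb wild type, 0.938 against 1.20 for the lower flank with the domain, and 1.07 against 0.876 for the domain with the upper flank. On the log2 scale these are differences of -0.06, -0.35 and 0.29. Midbrain i4i5ZRS also differed least from midbrain wild type in flank-to-flank contact, with log2 ratios of -0.02 for flank to flank, -0.29 for the lower flank with the domain and 0.40 for the domain with the upper flank. Limb i4i5ZRSreg stood 0.01 (log2) from limb wild type for flank to flank, with -0.32 and 0.30 for the other classes, and limb i4i5ZRS stood at -0.11, -0.31 and 0.37. In the same order of classes, ZRSreg stood at -0.06, 0.08 and -0.10 from limb wild type, and the Lmbr1 promoter deletion at -0.02, 0.09 and -0.002. Against the ZRSreg map, also of the G4 strain, limb i4i5ZRSreg stood at 0.07, -0.39 and 0.40. All comparisons with limb wild type share that map.

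**Figure D1:**
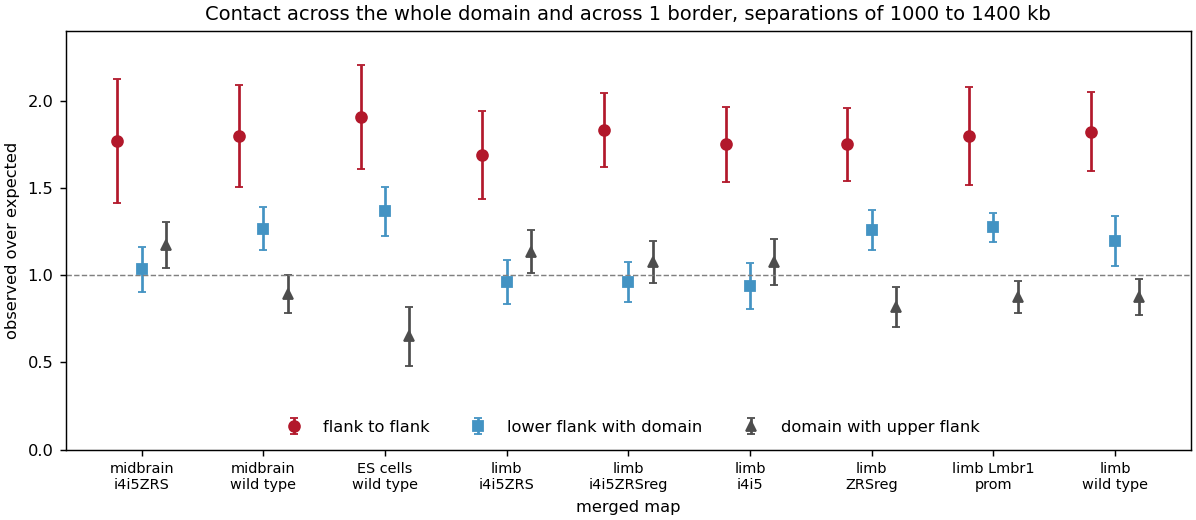
Observed over expected (y axis) of 3 classes of pairs 1000 to 1400 kb apart in each of the 9 merged maps (x axis). Points are means over 41 separations and bars the SD over them; circles join both flanks, squares the lower flank with the domain, and triangles the domain with the upper flank. The circles lie between 1.69 and 1.91 in all 9 maps, above both other classes.

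The flanks did not meet evenly. When the block was divided into 25 tiles of 100 kb by 100 kb, 11 tiles stood above 1 in all 9 maps, 2 stood below 1 in all 9, and 12 lay on different sides in different maps. Of the 10 tiles within 200 kb of the upper border, 8 were above 1 in every map. The tile that touches both borders, chr5:28660001-28760000 with chr5:29710001-29810000, had 1.98 to 2.43 in all maps, with 2.22 in midbrain wild type and 2.43 in ES cells, against 2.12 in limb wild type. It was among the 4 highest of the 25 tiles in every map. The lowest tile of limb wild type joined chr5:28460001-28560000 to the far end of the upper flank, chr5:30110001-30210000. It had 0.714 in midbrain wild type and 0.788 in ES cells, against 0.795 (0.743 to 0.849) in limb wild type, and it was below 1 in all 9 maps.

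**Figure D2:**
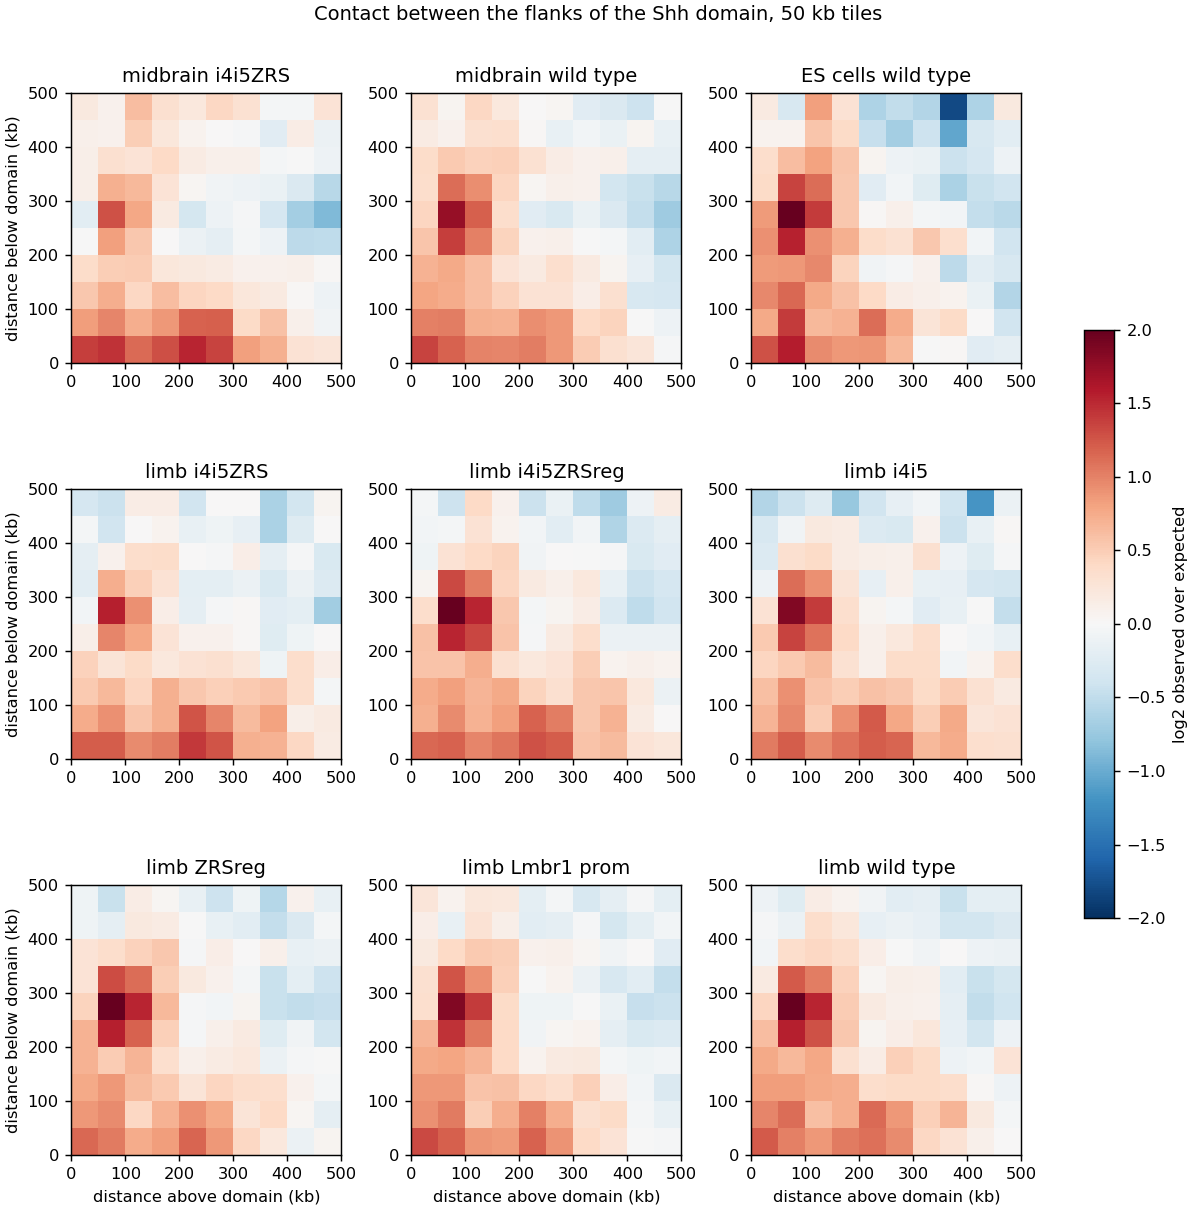
Log2 observed over expected of the 100 tiles of 50 kb by 50 kb in each of the 9 merged maps, by distance above the domain (x axis, kb) and distance below it (y axis, kb). Red is above the average pair at the same separation and blue below it. A dark spot just above the domain on the x axis and in the middle of the y axis appears in all maps. It is paler in both i4i5ZRS maps, in which the row next to the lower border is darker.

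The tile with the highest mean over the 3 wild-type maps did not touch the lower border. It joined chr5:28460001-28560000, which ends 200 kb below the domain, to the first 100 kb above the domain, chr5:29710001-29810000. Its value was 1.51 in midbrain i4i5ZRS, against 2.20 in midbrain wild type. ES cells had 2.77, limb i4i5ZRS 1.75, limb i4i5ZRSreg 2.47, limb i4i5 2.22, limb ZRSreg 2.53 and the Lmbr1 promoter deletion 2.31, against 2.49 in limb wild type. It had rank 1 of 25 in 6 maps and rank 2 in midbrain wild type, but had rank 4 in limb i4i5ZRS and rank 5 in midbrain i4i5ZRS.

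The contacts drew together into a spot that straddled the upper edge of that tile, at 29810000. The brightest single pair of all 2500 was the same one in each of the 9 maps, chr5:28490001-28500000 with chr5:29800001-29810000, 1310 kb apart. It stood at 7.32 (5.98 to 8.88, 103 contacts) in midbrain i4i5ZRS, against 9.51 (7.999 to 11.2, 140 contacts) in midbrain wild type. In ES cells it reached 15.6 (13.6 to 17.9, 215 contacts). The limb deletions had 10.8 in i4i5ZRS, 14.1 in i4i5ZRSreg, 11.96 in i4i5, 13.1 in ZRSreg and 10.8 in the Lmbr1 promoter deletion, against 11.5 (10.2 to 12.98, 269 contacts) in limb wild type. At this single pair the ES cell interval lay wholly above that of limb wild type. Those of the 5 limb deletions overlapped that of limb wild type, and that of midbrain i4i5ZRS overlapped that of midbrain wild type.

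A window of 50 kb by 50 kb around this spot, chr5:28480001-28530000 with chr5:29780001-29830000, gave steadier values, since it held 1366 to 4044 contacts per map. The window was taken from the values of the limb wild-type map, so its level there is a description. That choice can also tilt ratios to limb wild type toward lower values. The window was also the highest of all such windows in the other maps, save that the summit in ES cells lay 1 bin closer to the domain on the upper side. All 25 of its pairs were above 1 in every map, and its mean was 2.31 to 2.74 times that of the ring of bins around it. The mean was 4.22 (4.04 to 4.40) in midbrain wild type and 5.23 (5.02 to 5.46) in ES cells, against 5.16 (5.00 to 5.33) in limb wild type. Midbrain was lower than limb by 0.29 on the log2 scale (-0.37 to -0.21), and ES cells differed from limb by 0.02 (-0.06 to 0.10).

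The spot was weaker in both i4i5ZRS maps than in wild type. The window stood at 3.05 (2.89 to 3.22) in midbrain i4i5ZRS, against 4.22 in midbrain wild type, a log2 ratio of -0.47 (-0.57 to -0.37). It stood at 3.58 (3.40 to 3.76) in limb i4i5ZRS, against 5.16 in limb wild type, a log2 ratio of -0.53 (-0.62 to -0.44). These are differences of -27.6% and -30.7%. Limb i4i5 alone had 4.55, with a log2 ratio of -0.18 (-0.27 to -0.10) to limb wild type, and i4i5ZRS stood -0.35 (-0.45 to -0.25) from i4i5. Limb i4i5ZRSreg had 5.21 (log2 ratio 0.01, -0.05 to 0.08) and ZRSreg 5.09 (-0.02, -0.09 to 0.05), both within counting error of limb wild type. The labels do not say whether the i4i5ZRSreg allele also lacks the ZRS CTCF site. The Lmbr1 promoter deletion had 4.50, a log2 ratio of -0.20 (-0.27 to -0.13). Among the 6 limb maps the window was lowest in i4i5ZRS. Strain and genotype cannot be told apart in the ratios to wild type. The neighbouring windows with the same upper side, also chosen in limb wild type, were lower too in i4i5ZRS. The one centred 1350 kb apart had log2 ratios to wild type of -0.47 in midbrain and -0.60 in limb, and the one centred 1250 kb apart -0.55 in both.

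Lower contact in i4i5ZRS was not limited to the spot. The ring around the window had log2 ratios of -0.40 in midbrain i4i5ZRS and -0.47 in limb i4i5ZRS to wild type. Relative to its ring the window thus differed little, at 2.31 in midbrain i4i5ZRS against 2.43 in midbrain wild type. In limb it was 2.62 times its ring in i4i5ZRS against 2.73 in wild type. The 50 kb lower side of the window met the rest of the upper flank at 0.857 in midbrain i4i5ZRS, against 1.06 in midbrain wild type, and at 1.01 in limb i4i5ZRS, against 1.23 in limb wild type. It also met the domain less, at 0.471 against 0.581 in midbrain and at 0.635 against 0.726 in limb. The upper side of the window met the domain more, at 0.836 in midbrain i4i5ZRS against 0.674 in midbrain wild type, and at 0.747 in limb i4i5ZRS against 0.618 in limb wild type. Recovered coverage, which balancing divides out, also differed. On the lower side it was 0.10 above the 10 bins on each side (log2) in midbrain i4i5ZRS against 0.14 in midbrain wild type, and 0.14 in limb i4i5ZRS against 0.22 in limb wild type. On the upper side it was 0.37 against 0.40 in midbrain and 0.38 against 0.41 in limb. On the lower side ES cells had 0.04 with a window of 5.23, and the Lmbr1 promoter deletion had 0.14 with 4.50. Limb i4i5ZRSreg had 0.20 with 5.21, limb i4i5 0.18 with 4.55 and limb ZRSreg 0.16 with 5.09. The part of coverage in the result was not tested.

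**Figure D3:**
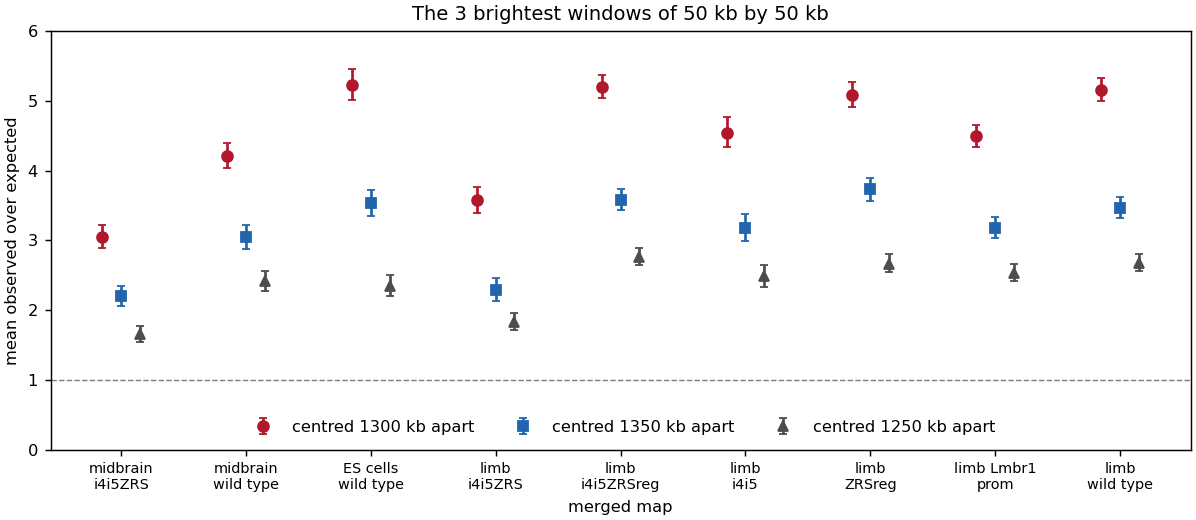
Mean observed over expected (y axis) of the 3 brightest windows of 50 kb by 50 kb, as chosen in limb wild type, in each of the 9 merged maps (x axis). The windows share their upper side and are centred 1300 kb (circles), 1350 kb (squares) and 1250 kb (triangles) apart; bars are 95% counting intervals. All 3 windows are lower in midbrain and limb i4i5ZRS than in the wild-type map of the same tissue.

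Contact of the whole upper flank with the 50 kb next to the lower border was higher in all 4 maps that lack i4 and i5. The last 50 kb of the lower flank, chr5:28710001-28760000, met the whole upper flank at 2.17 in midbrain i4i5ZRS, against 1.78 in midbrain wild type (log2 ratio 0.28, 0.23 to 0.33). In limb it met the upper flank at 1.98 in i4i5ZRS, 1.90 in i4i5ZRSreg and 1.90 in i4i5, against 1.73 in wild type. The log2 ratios were 0.20 (0.15 to 0.24) for i4i5ZRS, 0.14 (0.10 to 0.18) for i4i5ZRSreg and 0.14 (0.09 to 0.19) for i4i5. They were -0.06 for ZRSreg and 0.01 for the Lmbr1 promoter deletion. The 100 kb tile that touches both borders was not higher in limb. Its log2 ratios to wild type were -0.05 (-0.11 to 0.02) in i4i5ZRS, -0.07 (-0.13 to -0.02) in i4i5ZRSreg and -0.10 (-0.17 to -0.03) in i4i5. In midbrain that tile stood at 2.28 in i4i5ZRS against 2.22 in wild type. In i4i5ZRS the 150 kb from 28410001 to 28560000 moved the other way, with log2 ratios of -0.19, -0.32 and -0.37 for its 3 pieces of 50 kb in midbrain and -0.31, -0.39 and -0.31 in limb. Of the 3 pieces between them, that from 28560001 to 28610000 had log2 ratios of -0.08 in midbrain and -0.15 in limb, and both others stayed within 0.09 of wild type in both tissues. Over the 150 kb from 28410001 to 28560000, limb i4i5 was also lower than limb wild type, at -0.13, -0.13 and -0.08. The Lmbr1 promoter deletion stood there at -0.03, -0.15 and -0.13, limb i4i5ZRSreg at 0.03, -0.01 and 0.02, and ZRSreg at 0.05, -0.01 and -0.03. In limb i4i5ZRS the last 50 kb stood clear of the piece from 28460001 to 28510000, at 1.98 and 1.31. In limb wild type these pieces were nearly level, at 1.73 and 1.71.

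**Figure D4:**
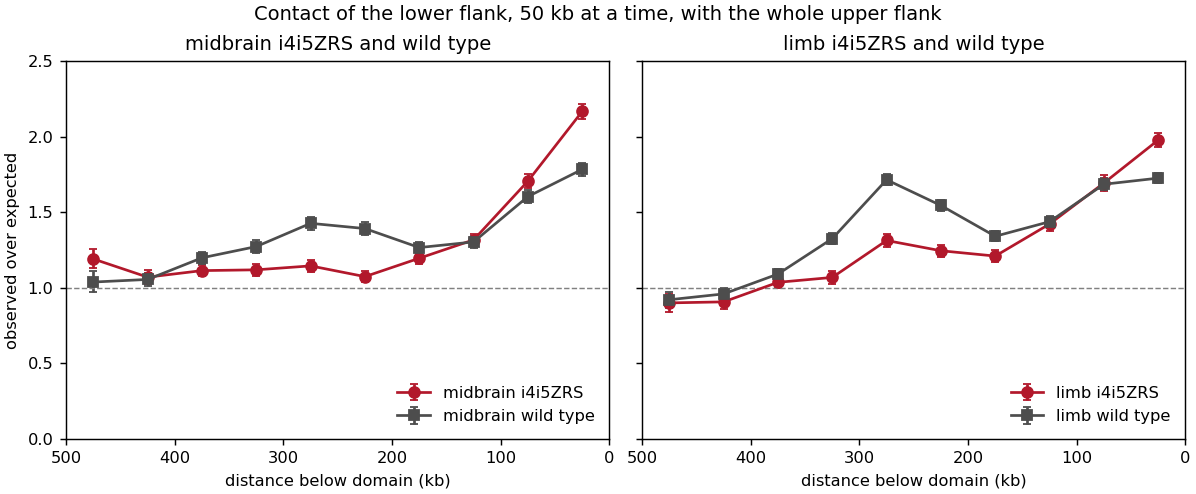
Observed over expected (y axis) of each 50 kb piece of the lower flank with the whole upper flank, by distance below the domain (x axis, kb), in i4i5ZRS and wild-type maps of midbrain and limb. Bars are 95% counting intervals. The hump at 200 to 350 kb is lower and the last 50 kb higher in i4i5ZRS in both tissues.

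The place of the second brightest window depended on the window's size. With windows of 5 by 5 bins, the one ranked second in both i4i5ZRS maps lay next to the lower border. Its central bins began at 28730001 and 29920001 in midbrain i4i5ZRS, at 2.87 (2.70 to 3.05), and at 28730001 and 29940001 in limb i4i5ZRS, at 2.70 (2.53 to 2.87). In the 7 other maps the second window had its lower centre at 28450001 and its upper centre at 29800001 or 29810001, at 3.04 to 3.73. With windows of 3 by 3 bins, limb i4i5ZRS had its second window at 28440001 with 29800001 (3.03), as did those 7 maps, and midbrain i4i5ZRS had it at 28740001 with 29760001 (3.26). The 100 kb tile that holds the second 5 by 5 window of limb i4i5ZRS and all but 1 column of bins of that of midbrain i4i5ZRS, chr5:28660001-28760000 with chr5:29910001-30010000, stood at 2.49 in midbrain i4i5ZRS against 1.89 in midbrain wild type (log2 ratio 0.40, 0.32 to 0.47). In limb it stood at 2.35 in i4i5ZRS, 2.26 in i4i5ZRSreg and 2.15 in i4i5, against 2.02 in wild type, with a log2 ratio of 0.22 (0.15 to 0.29) for i4i5ZRS. The ZRSreg and Lmbr1 promoter deletions, at 1.90 and 1.94, were below limb wild type.

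On the upper side all maps shared their highest stretch. The column from 29760001 to 29810000 was the highest of the 10 pieces of 50 kb in all 9 maps, at 1.74 in midbrain i4i5ZRS against 1.996 in midbrain wild type, at 1.69 in limb i4i5ZRS against 2.08 in limb wild type, and at 2.41 in ES cells. The first 150 kb above the domain had lower contact with the lower flank in i4i5ZRS, with log2 ratios of -0.22, -0.19 and -0.13 in midbrain and -0.24, -0.30 and -0.31 in limb. Limb i4i5 had the same signs there, at -0.23, -0.08 and -0.12. Limb i4i5ZRSreg did not, at -0.11, 0.01 and 0.03, and the Lmbr1 promoter deletion stood at 0.06, -0.01 and -0.10. ZRSreg had the signs of limb i4i5 with smaller values, at -0.006, -0.01 and -0.06. From 29910001 on, every piece was higher, by 0.08 to 0.17 (log2) in midbrain i4i5ZRS and 0.06 to 0.20 in limb i4i5ZRS. Limb i4i5 was higher there by 0.03 to 0.15, although 4 of the 6 intervals of limb i4i5ZRS and 3 of those of limb i4i5 included 0. Limb i4i5ZRSreg was also higher in every piece there, by 0.03 to 0.09, with some intervals that included 0. ZRSreg stood at -0.12 to 0.03 and the Lmbr1 promoter deletion at -0.10 to -0.0001.

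As a whole the block differed little between maps. The log2 ratio of the block was -0.02 (-0.04 to 0.00) in midbrain i4i5ZRS against midbrain wild type and -0.09 (-0.11 to -0.07) in limb i4i5ZRS against limb wild type, the largest of the 12 comparisons. Limb i4i5 stood at -0.04 (-0.06 to -0.02), i4i5ZRSreg at 0.02 (0.00 to 0.03), ZRSreg at -0.04 (-0.06 to -0.03) and the Lmbr1 promoter deletion at -0.05 (-0.07 to -0.04) against limb wild type. Midbrain wild type stood at -0.06 (-0.08 to -0.04) and ES cells at 0.01 (-0.01 to 0.03). With no correction for distance, as a share of the flank's signal, the ES cell ratio was -0.71 and that of limb i4i5 0.24, both with the other sign. Every distance-corrected block ratio above is under 0.10 in size, in a design that gives no replicate spread to set it against.

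Tiles whose log2 ratio was at least 0.322 in size were counted against all 108 tiles of the same size and separations, those of the block included. In limb i4i5ZRS against limb wild type, 3 of 25 tiles were lower past this threshold, against 6.48% of all tiles, and 0 were higher, against 7.41%. The 3 tiles join the first 200 kb above the domain to the stretch from 28360001 to 28560000, with the largest difference in the tile of the bright spot, 1.75 in i4i5ZRS and 2.49 in limb wild type (log2 ratio -0.51, -0.58 to -0.45). In midbrain i4i5ZRS against midbrain wild type, 2 tiles were lower and 1 higher, each against 8.33% of all tiles. The tile with the lowest ratio was the same as in limb, 1.51 against 2.20 (-0.55, -0.62 to -0.47). Against limb i4i5, limb i4i5ZRS had 1 lower tile, again that of the spot, 1.75 against 2.22 (-0.35, -0.42 to -0.27), and 0 higher, each against 0.926% of all tiles. That tile was the only one of the 108 lower past the threshold in this comparison. In midbrain neither the lower nor the higher count was above its background share, and counts of 1 to 3 tiles by themselves do not set the block apart.

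**Figure D5:**
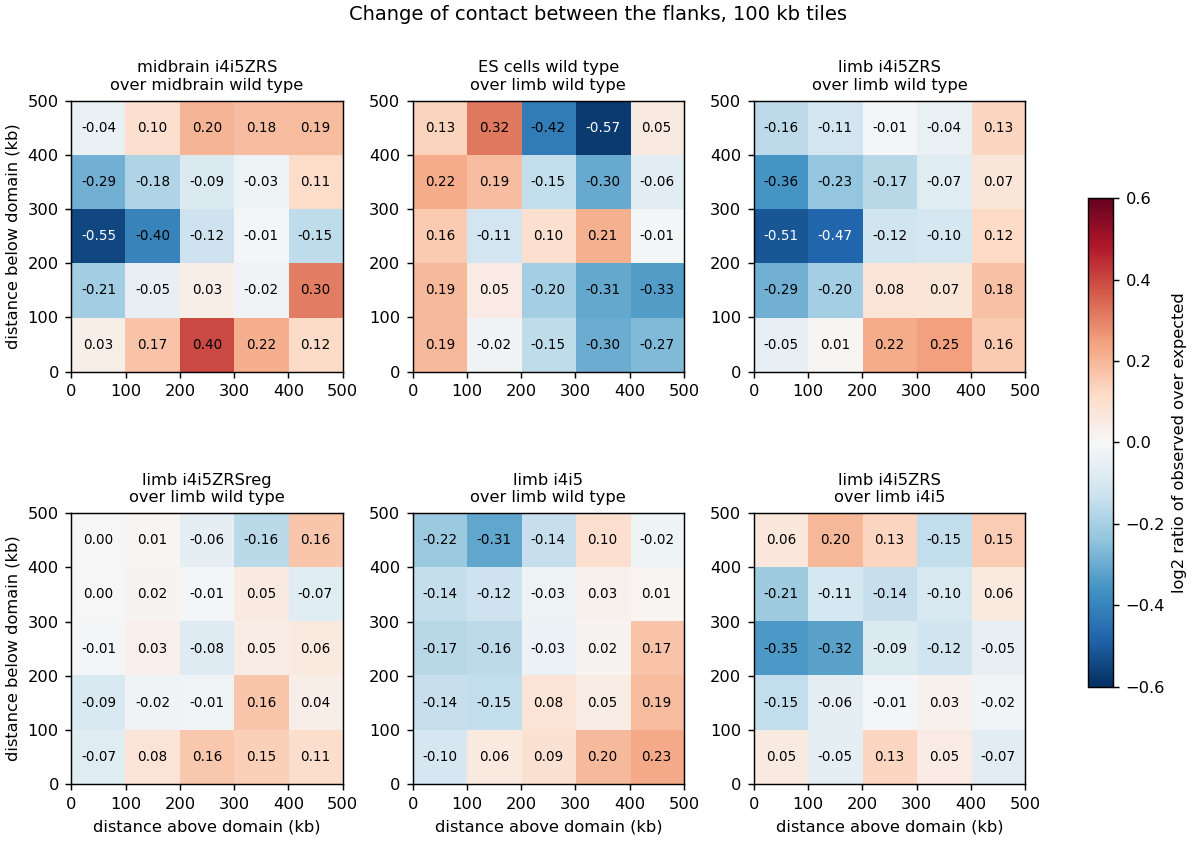
Log2 ratio of observed over expected between 2 merged maps for the 25 tiles of 100 kb by 100 kb, by distance above (x axis, kb) and below (y axis, kb) the domain, in 6 of the 12 comparisons. Blue is lower and red higher in the map named first. The tile of the bright spot, in the first column and the middle row, is at -0.55 and -0.51 in i4i5ZRS and at -0.01 in i4i5ZRSreg.

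The other alleles gave few tiles past the threshold. Limb i4i5 had 0 tiles higher and 0 lower than limb wild type, against 7.41% and 6.48% of all tiles. Limb i4i5ZRSreg had 0 and 0 against 3.7% and 4.63%, and ZRSreg and the Lmbr1 promoter deletion had 0 and 0 with 0% of all tiles in each direction. Limb i4i5ZRSreg against ZRSreg also had 0 and 0, against 12% and 9.26% of all tiles, so in that comparison the differences past the threshold lay outside the block. Against limb i4i5 it had 1 higher tile, against 1.85% of all tiles, chr5:28260001-28360000 with chr5:29810001-29910000, at 1.17 against 0.932 (0.323, 0.16 to 0.49), and 0 lower, against 0%. Limb i4i5 is the shallowest map and held 431 contacts in that tile.

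Among tissues, the single tile in which ES cells differed most from limb wild type lay at the outer end of the lower flank. With the whole upper flank, the 50 kb pieces there, from 28260001 and from 28310001, had log2 ratios of only 0.02 and -0.02. Along the upper flank, ES cells were higher in the first 100 kb above the domain, at 0.16 and 0.21. From 29910001 on they were lower, at -0.10 to -0.25. Against limb wild type 0 tiles were higher, against 3.7% of all tiles, and 3 were lower, against 22.2% of all tiles, a smaller share than the background. The largest difference joined the lower end of the lower flank, chr5:28260001-28360000, to chr5:30010001-30110000, at 0.554 in ES cells (269 contacts) and 0.825 in limb wild type (586 contacts), a log2 ratio of -0.57 (-0.79 to -0.36). The tiles of that outer row nearest the domain ran the other way, with 1.44 in ES cells against 1.16 in limb (0.318, 0.19 to 0.45) at chr5:29810001-29910000. In midbrain wild type 0 tiles were higher, against 2.78% of all tiles, and 1 was lower, against 3.7%, at chr5:28560001-28660000 with chr5:30110001-30210000 (0.815 in midbrain and 1.02 in limb, -0.33, -0.46 to -0.19). Midbrain i4i5ZRS against limb i4i5ZRS had 4 higher tiles, against 7.41% of all tiles, and 1 lower, against 4.63%. The 4 higher tiles all lay in the outermost 100 kb of the lower flank, chr5:28260001-28360000, at 1.01 to 1.34 in midbrain and 0.801 to 1.07 in limb.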

How the data were processed

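The 9 merged capture Hi-C maps of the Shh locus were used as deposited. Per the submitters' processing notes, cutadapt 1.15, Bowtie2 2.3.4.1, Juicer and SAMtools were used with the mm9 build, and no source used here gives their settings. The deposited files list a signal for each pair of 10 kb bins, which the authors balanced (KR) after a mapping quality filter of 30, per the names of the deposited files. Pairs not listed were taken as 0. Bin totals were equal within a map and differed between maps, so maps were compared as observed over expected, the summed signal over the summed mean signal at the same separations. Window values are means over 25 pairs.

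Whole contact counts were recovered from the balanced signal (100% within 0.01 of a whole number). They give exact Poisson intervals, and exact binomial intervals for ratios with the expected value held fixed. The scripts (Python 3.11.15, NumPy 2.4.6, SciPy 1.17.1, Matplotlib 3.10.9) were tested on simulated maps. Named features were the block, the corner tile, the 3 highest and lowest tiles over the wild-type maps, the largest rise and fall in each comparison, and the 3 highest windows and 50 kb rows and columns of each map, of which a selection is printed. The pairs and lists were chosen with earlier results of these data known. The brightest single pair, the sides of its window and coverage were examined after the values were seen. The sample title of 1 ES cell library differs from the map's name in its suffix, and 1 ZRSreg sample is spelled delta-RSreg.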

Additional observations from a re-analysis of the deposited data

How the results depend on the processing

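Alternatives were applied to the log2 ratio of the block in the 12 comparisons, and values are named by the map on top where limb wild type is below. Depth limits single pairs most, with a median of 9 to 18 contacts each. As a share of bin totals, with no correction for distance, the ratios were -0.71 in ES cells, -0.11 in midbrain wild type, 0.24 in i4i5, -0.24 in i4i5ZRS, 0.19 in i4i5ZRSreg and -0.075 in the Lmbr1 promoter deletion. In the same way they were -0.059 for midbrain i4i5ZRS over midbrain wild type, -0.47 for i4i5ZRS over i4i5, -0.045 for i4i5ZRSreg over i4i5, 0.23 for i4i5ZRSreg over ZRSreg and 0.069 for midbrain over limb i4i5ZRS. With the expected value from pairs outside the block they were -0.088 in midbrain wild type, -0.14 in i4i5ZRS, -0.061 in ZRSreg and -0.084 in the Lmbr1 promoter deletion, and -0.086 for i4i5ZRS over i4i5, 0.084 for i4i5ZRSreg over i4i5 and 0.092 over ZRSreg. With recovered counts they were -0.071 in ES cells, -0.086 in midbrain wild type, -0.017 in i4i5 and 0.045 in i4i5ZRSreg, and -0.085 for i4i5ZRS over i4i5 and 0.097 for i4i5ZRSreg over ZRSreg. With the inner 400 kb of each flank they were -0.061 in ES cells, -0.093 in midbrain wild type and -0.074 in the Lmbr1 promoter deletion, and 0.039 for i4i5ZRSreg over ZRSreg and -0.018 for midbrain over limb i4i5ZRS. With a median expected value they were 0.067 in ES cells, -0.014 in i4i5 and 0.044 in i4i5ZRSreg, and 0.093 for i4i5ZRSreg over ZRSreg. With the mean of pair values they were -0.012 in ES cells, -0.035 in midbrain wild type and -0.034 in the Lmbr1 promoter deletion, and 0.039 for midbrain over limb i4i5ZRS. Against the G4 map of ZRSreg in place of limb wild type, i4i5, i4i5ZRS and i4i5ZRSreg stood at 0.0046, -0.050 and 0.059, and against that of the Lmbr1 promoter deletion at 0.016, -0.038 and 0.071. The cause of these shifts was not tested. The sign differed from the value in the results in 3 of 12 comparisons for the share of bin totals, in 2 for the inner 400 kb, in 1 each for the outside expected value, recovered counts and the mean of pair values, in 0 for the median, and in 1 of 3 for each G4 map. With a threshold of 1.5 times, 0 of 25 tiles passed in any comparison. With tiles of 50 kb, 55 were higher and 69 lower over the 12 comparisons (the background per comparison being 2.43% to 14% and 1.82% to 22.5% of 494 tiles), against 6 and 11 with tiles of 100 kb. No paired analysis was possible because the samples of each group were merged into 1 map, and for the same reason no sample could be left out.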

Other observations

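The pattern over the 100 tiles of 50 kb was alike among most maps. Spearman's rho between maps, a description over tiles that share bins and balancing, ran from 0.703 for midbrain i4i5ZRS with ES cells to 0.956 for limb i4i5ZRSreg with limb wild type, over 36 pairs of maps. The 2 i4i5ZRS maps had a rho of 0.824 with each other. ES cells had 0.703 to 0.891 with the 8 other maps.

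The bins that form the sides of the bright window were well covered in all 9 maps. On the upper side the recovered contacts per bin stood 0.37 to 0.46 (log2) above the 10 bins on each side, and on the lower side 0.04 to 0.22 above them. ES cells had the smallest excess on the lower side, 0.04 against 0.22 in limb wild type. Within the lower flank, the lower side of the window met the 50 kb next to the border at 1.33 times the expected signal in ES cells, against 0.764 in limb wild type, while the 8 maps other than ES cells had 0.764 to 0.830.

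Of all signal of the lower flank, the block held 5.20% in midbrain i4i5ZRS, against 5.42% in midbrain wild type. It held 3.57% in ES cells. Limb i4i5ZRS had 4.96%, limb i4i5ZRSreg 6.66% and limb i4i5 6.87%, against 5.84% in limb wild type.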
